A study of Mus musculus with 8 samples.

Results

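The genes described here are 10 transcription factor genes of forebrain GABA neurons, Meis2, Foxp1, Foxp2, Isl1, Dlx1, Dlx5, Dlx6, Six3, Bcl11b and Zfp503. They were chosen by name, by a rule that uses no measured value, although earlier results of these data were known. All 10 were found among the 20692 genes of the files. RNA was sequenced from about 1000 sorted red fluorescent cells of the central amygdala per library, 1 male mouse each. In the PKCd group (n = 4) Cre recombinase was driven by the promoter of protein kinase C delta, and the mice were 9 weeks (replicates 1 and 2) or 18 weeks old (replicates 3 and 4). In the SST group (n = 4) Cre was driven from the somatostatin gene, and the mice were 8 weeks (replicates 1 and 2) or 20 weeks old (replicates 3 and 4). Mice of both groups were unchallenged and carried a td-Tomato reporter in the Rosa locus that is silent until Cre removes a stop cassette. Such a reporter stays on once Cre has acted, so it also marks cells that used the promoter only in the past. The question was whether these factors differ between the 2 sorted populations.

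Many GABA neurons of the central amygdala share their embryonic origin with those of the striatum, in the ganglionic eminences. There, DLX homeodomain proteins start the GABA neuron program, and MEIS2, SIX3, ISL1 and ZFP503 act in progenitors and young striatal neurons. FOXP1, FOXP2 and BCL11B (also called CTIP2) are kept by many mature striatal and amygdala projection neurons.

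Library totals ran from 964361 to 18242496 estimated reads. The 4 libraries of 8 to 9 week mice were the deep ones, and the file names carry another run code for each age class, so age, run and depth cannot be told apart. Prkcd stood at 106.5 to 225.7 TPM in PKCd and 0 to 30.2 TPM in SST libraries. Sst stood at 116.3 to 296.2 TPM in SST libraries. PKCd replicate 2 had 222.7 TPM of Sst and the other 3 PKCd libraries had 0.209 to 13.7 TPM. The populations are labelled neuronal, and their 10 pan-neuronal markers summed to 134.3 to 594.6 TPM, beside 30294 to 49644 TPM for 12 microglial markers in PKCd libraries and 471.2 to 5997 TPM in SST libraries. All 12 microglial markers had reads in every library. The 8 oligodendrocyte markers summed to 11934 to 30046 TPM in PKCd and 10922 to 59991 TPM in SST libraries. Sums of the 8 mural and erythrocyte markers were 101.5 to 11443 TPM in PKCd and 2145 to 10605 TPM in SST libraries. The vesicular GABA transporter Slc32a1 was listed at 0 in 4 libraries (PKCd replicates 3 and 4, SST replicates 2 and 4) and was highest, 12.2 TPM, in PKCd replicate 2. In bulk libraries like these, fewer neurons and less RNA per neuron cannot be told apart.

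Meis2 and Foxp1 had the highest levels of the 10 genes, with means over the 8 libraries of 12.2 and 11.02 TPM. Six3 and Bcl11b followed at 2.92 and 2.68 TPM, then Zfp503 (1.15), Foxp2 (0.942), Dlx1 (0.454), Isl1 (0.164) and Dlx6 (0.144 TPM). Dlx5 was listed at 0 in all 8 libraries. TPM is scaled to transcript length, so these levels can be set side by side. Meis2 was not abundant: 34.7% of the 11328 genes with enough reads to test had a lower mean TPM. The corresponding share was 31.9% for Foxp1, 7.31% for Six3 and 6.56% for Bcl11b. Neighbours in this order lay within each other's spread over libraries, except that Foxp1 exceeded Six3 in 7 of 8 libraries.

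**Figure D1:**
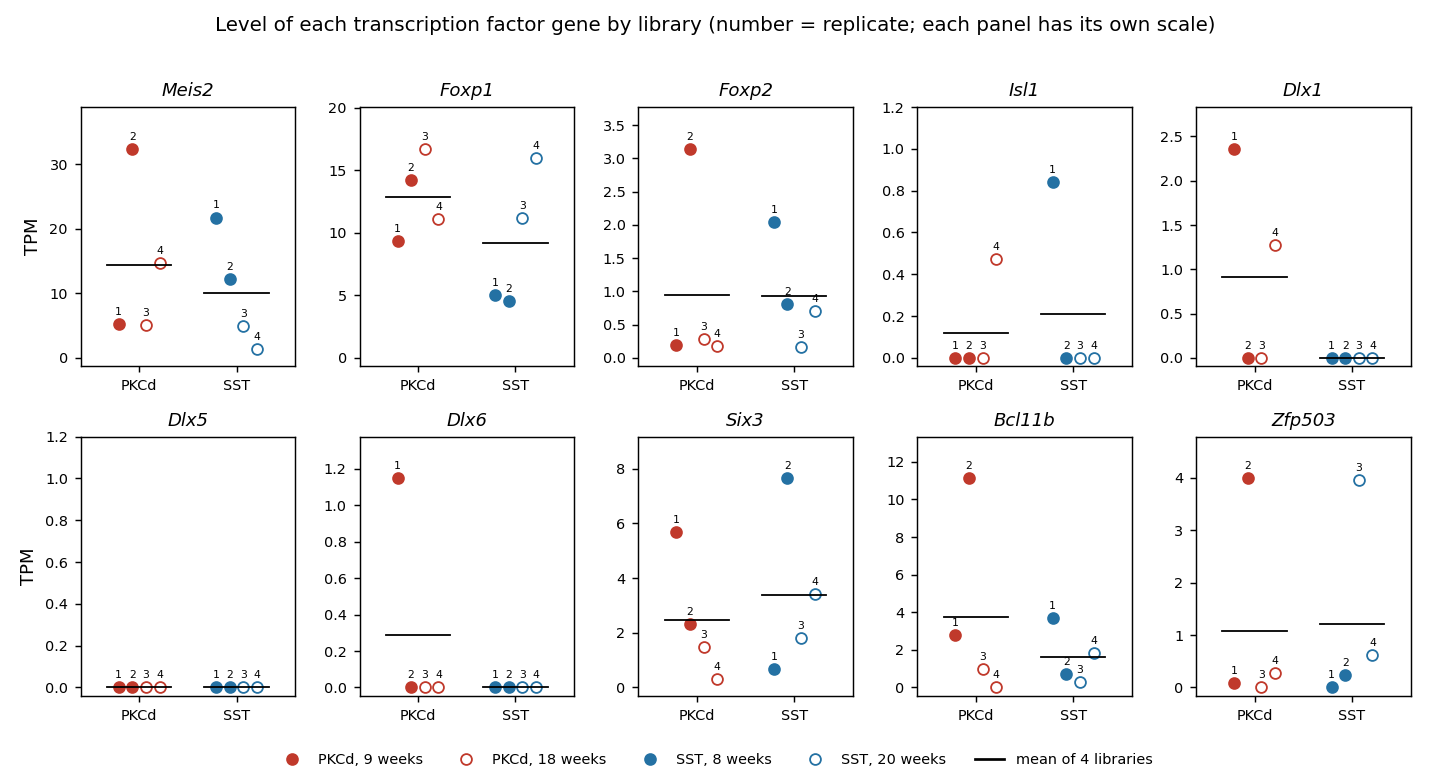
TPM of the 10 genes in each library; filled points are 8 to 9 week and open points 18 to 20 week mice, the digit is the replicate, lines are means of 4 libraries, and each panel has its own scale. PKCd and SST points overlap in every panel, and PKCd replicate 2 holds the highest point for Meis2, Foxp2, Bcl11b and Zfp503.

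None of the 10 genes differed between the populations at the threshold. Meis2, Foxp1, Foxp2, Six3 and Bcl11b passed the default filter on low counts and were tested, and the other 5 did not pass it. With no filter 9 factors could be fitted, all but Dlx5, and 0 passed. Of the 5 tested, 0 passed an adjusted p of 0.05 in edgeR's quasi-likelihood test, where 0.282% of all 11328 tested genes did. Of the 5, 0 had an unadjusted p under 0.05 (6.67% of all genes), and 0 passed in DESeq2 (4.01% of all genes) or in limma on log2(TPM + 1) (1.3% of all genes). In 0 of the 5 did the 4 PKCd libraries lie wholly apart from the 4 SST libraries, as 6.94% of tested genes did. The estimates were too wide to show that the populations are alike, as the intervals given for each gene show. Prkcd and Sst, the genes behind the sort, did not pass either. Their log2 fold changes were 5.36 ± 1.36 and -2.78 ± 1.63 (SE; edgeR adjusted p 0.219 and 0.845). A factor that did not pass may therefore still differ between the populations.

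The 3 Dlx genes come first in the lineage and were nearly absent. Dlx1 (chromosome 2, 71528113 to 71533981, GRCm38) is needed for the migration and survival of forebrain GABA neurons. It had 73 reads in PKCd replicate 1 (2.36 TPM), 3 reads in PKCd replicate 4 (1.27 TPM) and 0 in PKCd replicates 2 and 3 and in the 4 SST libraries. Dlx6 (chromosome 6, 6863334 to 6867970), which lies beside Dlx5 and shares enhancers with it, had 12 reads in PKCd replicate 1 (1.15 TPM) and 0 in the other 7 libraries. Dlx5 (chromosome 6, 6877801 to 6882068) had 0 reads throughout. All reads of these 3 genes therefore came from 2 PKCd libraries, and the deepest library held most of them. At the depth of the shallowest library the 73 Dlx1 reads would be 3.86 reads and the 12 Dlx6 reads 0.634 reads. A count of 0 allows up to 3 reads, which is 0.164 CPM in the deepest and 3.11 CPM in the shallowest library, for counting error only. In the shallowest library a Dlx1 level like that of PKCd replicate 1 would be near this limit. PKCd replicate 2 and SST replicates 1 and 2 had 0 Dlx1 reads in 10316149, 14295789 and 16009560 reads. There a count of 0 allows up to 0.291, 0.210 and 0.187 CPM, again for counting error only. The cause of these zeros was not tested. The Dlx genes failed the default filter on low counts. With no filter, Dlx1 had an edgeR adjusted p of 0.748 and Dlx6 of 0.952 between populations. Dlx1 and Dlx6 overlap antisense RNAs (Dlx1as and Dlx6os1) that were not analysed here, and whether the authors' counting used strand is not stated in the labels.

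Meis2 (chromosome 2, 115861264 to 116067537) encodes a homeodomain partner of PBX and DLX proteins. It stood at 5.28, 32.4, 5.09 and 14.7 TPM in PKCd replicates 1 to 4 and at 21.8, 12.2, 4.92 and 1.41 TPM in SST replicates 1 to 4. The highest library was PKCd replicate 2 and the lowest SST replicate 4, and the groups overlapped over most of their range. The mean of the PKCd libraries was 14.4 ± 12.8 TPM and that of the SST libraries 10.1 ± 9.00 TPM (SD, n = 4 each). The log2 fold change, PKCd minus SST, was 0.95 ± 1.05 (SE; edgeR adjusted p 0.939), and 2 SE on either side gave -1.15 to 3.04. limma-voom gave the opposite sign, -0.23.

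The 6 Meis2 transcripts in the files differ at the ends of the protein, and reads went to different ones in different libraries. The first segment below is an exon (chr2:115867269-115867379, minus strand, GRCm38) whose first 21 bases, in capitals, are a coding extension present in 3 of the transcripts. It adds 7 codons in frame. The second is the coding part of the following exon (chr2:115866846-115866904, minus strand) with its stop codon in capitals. Transcripts that skip that exon read on into the last exon (coding part without the stop codon chr2:115864230-115864513). Both are shown because they change the coding sequence between transcripts to which the reads were assigned. The transcripts also differ by a downstream first exon, which is not shown: transcripts that start there took 27.6%, 100%, 0% and 49.1% of Meis2 reads in PKCd replicates 1 to 4, 10.2% in SST replicate 1 and 0% in SST replicates 2 to 4.
Meis2 exon with extension: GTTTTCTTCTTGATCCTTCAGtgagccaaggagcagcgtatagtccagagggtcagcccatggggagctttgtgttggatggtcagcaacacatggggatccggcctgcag
Meis2 exon with early stop: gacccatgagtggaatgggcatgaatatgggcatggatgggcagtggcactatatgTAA

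Transcripts with the 21-base extension took 98.5% of 292 Meis2 reads in PKCd replicate 1, 100% of 1158 in PKCd replicate 2 and 100% of 62 in PKCd replicate 4, but 0% of 13 in PKCd replicate 3. They took 0.0126% of 1112 reads in SST replicate 1, 0% of 496 in SST replicate 2 and 0% of 21 in SST replicate 3, but 100% of 10 in SST replicate 4. The 4 deep libraries thus fell on opposite sides by population, and 2 shallow libraries, with 13 and 10 reads, went the other way. The exon with the early stop did not follow population: it was in 100% of reads in PKCd replicates 1 and 2, SST replicate 1 and SST replicate 3, in 49.1% in PKCd replicate 4, and in 0% in PKCd replicate 3 and SST replicates 2 and 4. In 5 of 8 libraries over 99% of Meis2 reads were assigned to a single transcript, and 5 of the 6 transcripts led in at least 1 library. The authors' tool divides reads among transcripts, and the deposited tables hold no count of reads across the segments themselves. These shares were picked after their values were seen and have no test.

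**Figure D2:**
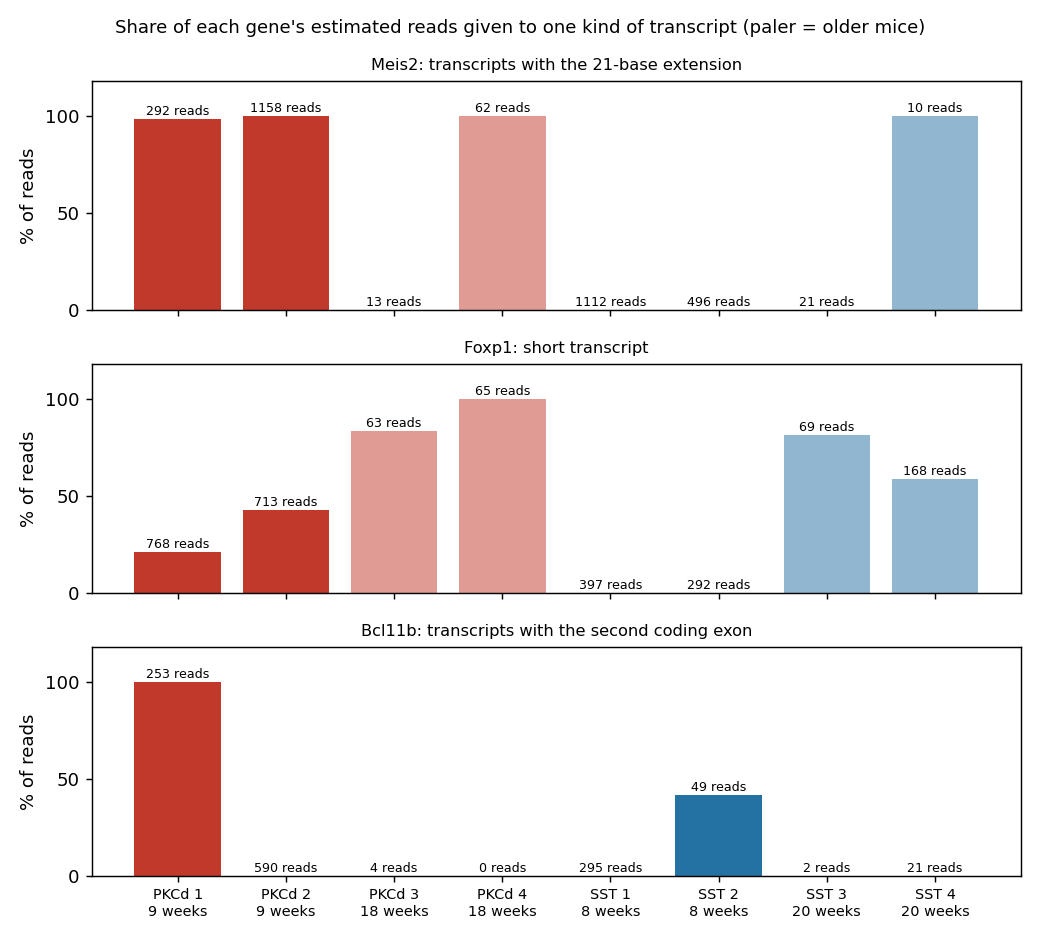
Percent of each gene's estimated reads assigned to transcripts with the Meis2 extension, to the short Foxp1 transcript and to Bcl11b transcripts with the second coding exon, by library, with the gene's reads above each bar and paler bars for older mice. The Meis2 share is 98.5% and 100% in the deep PKCd libraries and 0.0126% and 0% in the deep SST libraries. In replicates 3 and 4 it is 0% and 100% in PKCd and 0% and 100% in SST, so the populations overlap. The Foxp1 share is 58.6% or more in all 4 older and 42.5% or less in all 4 younger libraries.

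Six3 (chromosome 17, 85613608 to 85626191), a homeodomain factor of the developing forebrain and eye, is used in young striatal neurons of the indirect pathway. It stood at 5.67, 2.33, 1.49 and 0.315 TPM in PKCd replicates 1 to 4 and at 0.666, 7.64, 1.82 and 3.42 TPM in SST replicates 1 to 4. Each population held libraries more than 10 times apart, 18.0 times in PKCd and 11.5 times in SST. Means were 2.45 ± 2.30 and 3.39 ± 3.05 TPM (SD, n = 4 each), and the log2 fold change was -0.64 ± 1.49 (SE; edgeR adjusted p 0.975; -3.61 to 2.34 at 2 SE). The estimate was positive in limma-voom (0.11) and in the 8 to 9 week libraries alone (0.18). Six3 overlaps the antisense RNA Six3os1, which was not analysed here.

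Isl1 (chromosome 13, 116298270 to 116309688), a LIM homeodomain factor of direct pathway and cholinergic striatal neurons, had 22 reads in SST replicate 1 (0.840 TPM), 1 read in PKCd replicate 4 (0.471 TPM) and 0 in the other 6 libraries. The 22 reads would be 1.48 reads at the depth of the shallowest library. Zfp503 (chromosome 14, 21983959 to 21989601), also called Nolz1, is a zinc finger repressor of striatal progenitors. It stood at 0.0832, 3.99, 0 and 0.273 TPM in PKCd replicates 1 to 4 and at 0, 0.244, 3.95 and 0.625 TPM in SST replicates 1 to 4. A single library in each population, PKCd replicate 2 and SST replicate 3, carried nearly all of the Zfp503 level. Means were 1.09 ± 1.94 and 1.21 ± 1.85 TPM (SD, n = 4 each). Isl1 and Zfp503 failed the default filter on low counts. With no filter their edgeR adjusted p was 0.987 and 0.997.

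Foxp1 (chromosome 6, 98925342 to 99522746), a forkhead repressor of striatal projection neurons that many other cells also make, varied least. It stood at 9.35, 14.2, 16.7 and 11.1 TPM in PKCd replicates 1 to 4 and at 5.06, 4.56, 11.2 and 15.98 TPM in SST replicates 1 to 4. SST replicates 1 and 2 lay below all PKCd libraries, and SST replicates 3 and 4 lay within their range. Means were 12.8 ± 3.28 and 9.19 ± 5.43 TPM (SD, n = 4 each). The log2 fold change was 0.63 ± 0.79 (SE; edgeR adjusted p 0.951; -0.96 to 2.22 at 2 SE). Foxp1 was positive in all 20 alternative settings (0.05 to 1.18). The 2 SST libraries with low Foxp1 also had the lowest sums of 10 endothelial markers, 284.3 and 142.8 TPM, while SST replicates 3 and 4 had 1473 and 4476 TPM and PKCd libraries 321.8 to 5556 TPM. The part of these cells in the Foxp1 level was not tested.

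The short Foxp1 transcript starts at a first exon inside the gene (chr6:99028164-99028258, minus strand) and has 1728 coding bases without the stop codon, against 2115 in the longest of the 3 transcripts in the files. It took 21.03% and 42.5% of Foxp1 reads in PKCd replicates 1 and 2 and 0% in SST replicates 1 and 2. In the older mice it took 83.4% and 100% in PKCd replicates 3 and 4, and 81.4% and 58.6% in SST replicates 3 and 4. The age classes did not overlap in this share. The older libraries had 63 to 168 Foxp1 reads and the younger ones 292 to 768, so the share moved with depth as well. It was picked after its values were seen and has no test.

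Foxp2 (chromosome 6, 14901349 to 15441977), the forkhead paralogue known for speech and motor learning circuits, stood at 0.190, 3.14, 0.281 and 0.178 TPM in PKCd replicates 1 to 4 and at 2.05, 0.814, 0.172 and 0.712 TPM in SST replicates 1 to 4. PKCd replicate 2 was the highest library, and the other 3 PKCd libraries lay low within the SST range. Means were 0.948 ± 1.47 and 0.937 ± 0.793 TPM (SD, n = 4 each), and the log2 fold change was -0.38 ± 1.48 (SE; edgeR adjusted p 0.989; -3.35 to 2.58 at 2 SE). Without SST replicate 4 the estimate was 0.24, and in the 8 to 9 week libraries alone it was 0.03. Of 3 Foxp2 transcripts the same one took over 99% of the reads in each of the 8 libraries, with 356 reads in all.

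Bcl11b (chromosome 12, 107910403 to 108004145), a zinc finger factor that striatal projection neurons need to mature, stood at 2.81, 11.1, 0.969 and 0 TPM in PKCd replicates 1 to 4 and at 3.67, 0.733, 0.303 and 1.83 TPM in SST replicates 1 to 4. PKCd replicate 2 again stood highest, and PKCd replicate 4 had no read. Means were 3.72 ± 5.06 and 1.63 ± 1.502 TPM (SD, n = 4 each), and the log2 fold change was 0.21 ± 1.80 (SE; edgeR adjusted p 0.992; -3.39 to 3.81 at 2 SE). Its sign rested on single libraries: it was -0.54 without PKCd replicate 2 and -0.44 without SST replicate 2. Transcripts with the second coding exon (chr12:107989465-107989830, 366 bases) took 100% of 253 Bcl11b reads in PKCd replicate 1, 41.9% of 49 in SST replicate 2 and 0% of 590 in PKCd replicate 2 and of 295 in SST replicate 1.

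**Figure D3:**
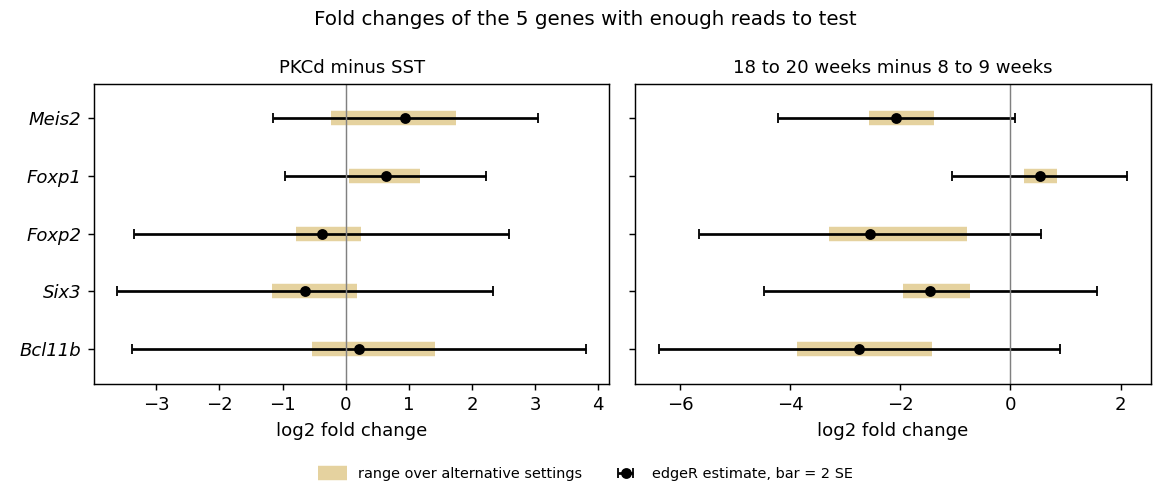
Log2 fold changes of the 5 tested genes for PKCd minus SST (left) and older minus younger mice (right); points are edgeR estimates, bars 2 SE to each side and bands the range over alternative settings. Every bar crosses 0; the closest to clearing it is Meis2 by age, with an upper end at 0.08.

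PKCd replicate 2, the PKCd library with an SST-range level of Sst, held the highest level of 4 of the 10 genes (Meis2, Foxp2, Bcl11b and Zfp503). The share of all genes that were highest in this library was not counted, so the 4 cannot be read as an excess. The 10 genes summed to 67.2 TPM there and to 22.3 to 34.0 TPM in the other 7 libraries. The same library was highest of the 8 for the GABA synthesis genes Gad1 (106.6 TPM) and Gad2 (80.0 TPM) and for the enkephalin precursor Penk (1183 TPM). It had the lowest astrocyte marker sum, 348.2 TPM. Without it, 0 of the 4 factors that could still be tested passed. Gad1 and Penk were named after their values were seen. Six3 did not share this pattern and was highest in SST replicate 2. That library had the highest marker sums of oligodendrocyte precursors (2941 TPM) and oligodendrocytes (59991 TPM), and 57.4 TPM of Gad2. Foxp1 was highest in PKCd replicate 3, which had the highest microglial sum (49644 TPM). The part of these cells in each level was not tested.

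**Figure D4:**
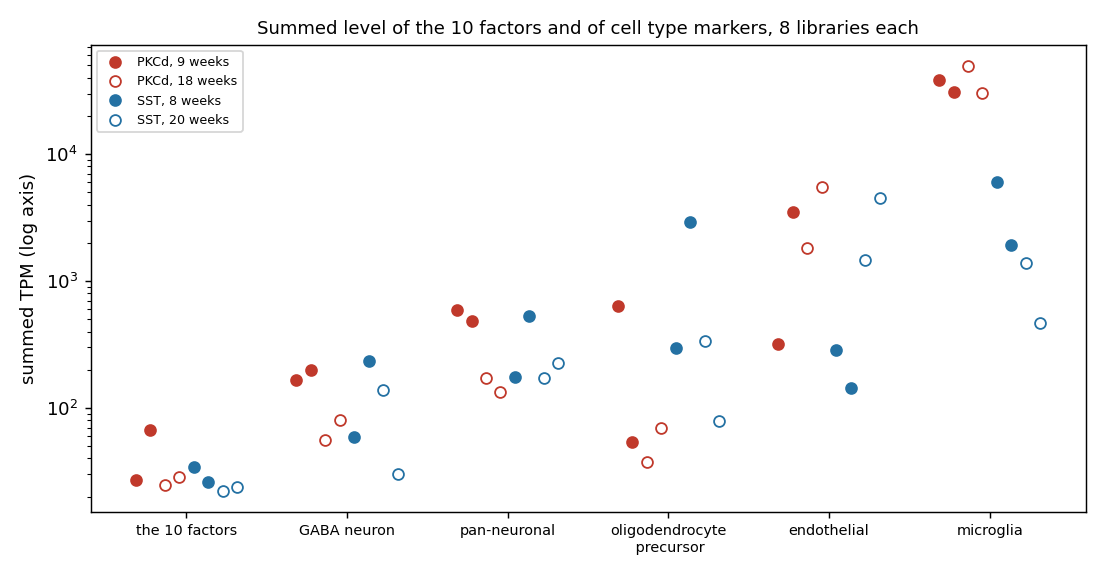
Summed TPM of the 10 factors and of marker lists in each of the 8 libraries, on a log axis; filled points are younger and open points older mice. The 10 factors span 22.3 to 67.2 TPM, below the pan-neuronal sums of 134.3 to 594.6 TPM, and microglial sums of all PKCd libraries lie above all SST libraries.

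Age class was compared in the same model, and none of the 5 tested genes changed at the threshold. Meis2 stood at 17.9 ± 11.8 TPM in younger and 6.53 ± 5.72 TPM in older mice (SD, n = 4 each), with a log2 fold change, older minus younger, of -2.07 ± 1.07 (SE; edgeR adjusted p 0.641; -4.22 to 0.08 at 2 SE). Bcl11b, Foxp2 and Six3 had estimates of -2.74 ± 1.82, -2.55 ± 1.55 and -1.45 ± 1.51, and Foxp1 of 0.53 ± 0.79 (SE). Leaving out 1 library moved Bcl11b to between -3.88 and -1.92, Foxp2 to between -3.30 and -2.21, Six3 to between -1.96 and -0.99, Meis2 to between -2.56 and -1.48 and Foxp1 to between 0.25 and 0.85. In edgeR 0 of the 5 passed, where 0.053% of all genes did (0.0265% higher and 0.0265% lower), and 0 had an unadjusted p under 0.05 (8.35% of all genes). DESeq2 and limma on log2(TPM + 1) also called 0 of the 5, against 4.9% and 0.468% of all genes. In 0 of the 5 did the age classes lie apart, as 7.68% of tested genes did. The median estimate of all tested genes was -0.16, and that of the 10 pan-neuronal markers was -2.57, with all 10 negative and 0 past the threshold. The part of neuronal RNA in the age estimates of the factors was not tested. A test of whether the population difference changed with age called 0 of the 5 genes in edgeR (0.0% of all genes; 0 of the 5 with an unadjusted p under 0.05, 4.12% of all genes) and 0 in DESeq2 (0.68% of all genes).

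Other factors of the lineage were read from a list of 30 genes, of which 21 could be tested. In edgeR 0 passed between populations in either direction. The highest estimate was that of Ikzf1 at 6.43 ± 1.49 (SE; edgeR adjusted p 0.164). The median of the list was -0.92, against -0.08 over all tested genes. In 4 of the 21 the populations lay apart, beside 6.94% of all tested genes. Among them, Ikzf1 (12.1 to 24.5 against 0 to 0.985 TPM) and Maf (11.1 to 57.3 against 0.602 to 6.35 TPM) were higher in PKCd libraries. Both are also factors of myeloid cells, and microglial marker sums lay apart the same way; their part in these levels was not tested. Lower in PKCd libraries was Nr2f1 (COUP-TF1), a nuclear receptor of the caudal ganglionic eminence, at 0.0603 to 13.3 TPM in PKCd and 14.0 to 35.9 TPM in SST libraries (log2 fold change -1.86 ± 1.44, edgeR adjusted p 0.889). Nr2f2, also in the list, overlapped between populations (0.437 to 9.27 against 1.16 to 66.6 TPM). All 8 oligodendrocyte precursor markers and 5 of 8 astrocyte markers also had negative estimates, with 0 past the threshold. The part of these cells in the Nr2f1 level was not tested. Maf, Nr2f1 and Nr2f2 were named after their values were seen.

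Genes used by mature striatal output neurons, 12 in the list and 9 tested, had 0 members past the threshold. The lowest estimate was that of Tac1, the substance P precursor, at -3.68 ± 1.59, and the highest that of Rasd2, a small GTPase, at 0.59 ± 1.54 (SE; edgeR adjusted p 0.691 and 0.978). The dopamine receptors Drd1 and Drd2 had too few reads to test and did not exceed 1.503 and 5.41 TPM. The adenosine receptor gene Adora2a stood at 0.895 to 61.1 TPM in PKCd and 0.591 to 89.2 TPM in SST libraries. DARPP-32 (Ppp1r1b), the dopamine-regulated phosphatase inhibitor, was present in all libraries at 61.3 to 193.5 TPM in PKCd and 40.4 to 133.3 TPM in SST. Drd1, Drd2, Adora2a and DARPP-32 were picked from the list after their values were seen. Of 12 factors of excitatory forebrain neurons 3 could be tested and 0 passed, with Emx2 lowest at -3.42 ± 2.66 and Mef2c, which microglia also express, highest at 1.70 ± 0.53 (SE; edgeR adjusted p 0.889 and 0.386). Of the GABA neuron markers 3 of 4 could be tested and 0 passed, with the highest estimate that of Gad2 at 1.80 ± 1.29 (SE; edgeR adjusted p 0.877).

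The genes most like the 3 highest factors across libraries were found by Pearson correlation of log2(TPM + 1) over the 8 libraries, as a description. Among 9861 genes Kctd14 (r = 0.951) and Fth1 (r = 0.934), the ferritin heavy chain, were closest to Meis2. Cpne3 (r = 0.979) and B3galnt2 (r = 0.969) were closest to Foxp1. Trub1 (r = 0.939) and the splicing factor Rbfox2 (r = 0.932) were closest to Six3, among 9862 genes. The 8 points share depth, age class and cell makeup, and the best of so many genes over so few libraries is high by selection.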

How the data were processed

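The authors deposited 1 table per library with estimated counts and TPM per RefSeq transcript, per the file headers. Estimated counts are not normalized, and TPM deposited by the authors is scaled to transcript length and a fixed library total, per the file headers. Without giving roles, the submitters' processing notes list the mm10 build, BWA 0.7.12 and kallisto 0.43.0. Transcripts were joined to gene symbols with RefSeq GRCm38.p6 (30080 of 30404 targets), then GENCODE M21 (147), and 177 kept their accession. The estimated counts of a gene's transcripts were added up, then rounded to whole numbers.

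Genes were tested with edgeR 4.0.16 in R 4.3.3 by its quasi-likelihood test. The fit took all 8 libraries, TMM scaling, the default low-count filter for the 2 populations, and a model of age class plus population. P-values were adjusted by Benjamini and Hochberg over all 11328 tested genes, with a threshold of 0.05. SE was taken from the F statistic. Alternatives used DESeq2 1.42.0, limma 3.58.1, other scalings and filters, and libraries left out. The tests were checked on simulated counts with large changes and the same spread for all genes. That check does not cover smaller changes or the uneven spread of these libraries. Each library is 1 mouse, so p-values measure mouse, sorting and amplification spread together. Exons and sequences come from GENCODE M21 (GRCm38). Coordinates are 1-based. RNA-seq reads were amplified without molecular identifiers that the labels mention, so limits on zero counts cover counting error only.

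The members and lists were chosen with earlier results of these data known. All members are named. Of other lists, those past the threshold are named (at most 4 by fold change), otherwise the lowest and highest estimate, with Prkcd and Sst as a check of the sort (some genes this rule names are not reported here); the 2 genes most like each of the 3 highest members come from genes with a mean of at least 10 CPM. Lists of cell type markers were read as summed TPM.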

Additional observations from a re-analysis of the deposited data

Results flagged for a closer look

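In 6 of the 16 groups of 4 libraries in which a factor had any reads, a single library stood far from the other 3. The rule flags about 1 in 20 groups of normally distributed values, and always flags groups with reads in 1 library only. TPM near 0 need not follow that distribution, and the share flagged over all genes was not counted. The 6 flags therefore cannot be read as an excess in the factors. Foxp2 (3.14 TPM) and Zfp503 (3.99 TPM) stood high in PKCd replicate 2. Zfp503 stood high in SST replicate 3 at 3.95 TPM. Isl1 had reads only in PKCd replicate 4 (0.471 TPM) among PKCd libraries and only in SST replicate 1 (0.840 TPM) among SST libraries. Dlx6 had reads only in PKCd replicate 1, at 1.15 TPM.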

How the results depend on the processing

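None of the tested factors passed the threshold in any setting of edgeR, DESeq2, limma-voom or limma that could be fitted: 21 for population (lowest adjusted p 0.514), 18 for age class (0.240) and 17 for their interaction (0.793). Factors that failed a stricter filter had no value there. Between populations Meis2 ranged from -0.23 (limma-voom) to 1.75, Foxp1 from 0.05 to 1.18, Foxp2 from -0.79 to 0.24, Six3 from -1.17 to 0.18 and Bcl11b from -0.54 to 1.42 (log2). The sign turned for Foxp2 without SST replicate 4 (0.24) and in 8 to 9 week libraries alone (0.030), for Six3 in limma-voom (0.11) and in 8 to 9 week libraries alone (0.18), and for Bcl11b without PKCd replicate 2 (-0.54) or SST replicate 2 (-0.44). Leaving out 1 library each gave -0.61 to 0.24 for Foxp2 and -0.54 to 1.23 for Bcl11b. The Foxp2 interaction turned in limma-voom (0.56), limma on log2(TPM + 0.1) (0.0017) and without SST replicate 4 (0.47), with -1.77 to 0.47 when leaving out 1 library each. No age estimate turned.

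Over all genes, 32 passed between populations in edgeR, 269 with no filter, 454 in DESeq2, 147 and 68 in limma on log2(TPM + 1) and log2(TPM + 0.1), and 0 in 8 to 9 week or 18 to 20 week libraries alone. Leaving out 1 library gave 10 to 52 (15, 21, 10 and 17 without PKCd replicates 1 to 4, and 52, 10 and 13 without SST replicates 1, 3 and 4). For age class 6 passed in edgeR, 2 with RLE scaling, 249 with no filter, 2 with at least 10 CPM in 4 libraries, 555 in DESeq2, 0 in limma-voom, 53 and 12 in limma on log2(TPM + 1) and log2(TPM + 0.1), and 0 to 2 with 1 library left out (2 without SST replicate 3, otherwise 0). The cause of these differences was not tested. With a replicate block in place of age class 24 genes and 0 factors passed. Deviations of same-numbered libraries from their population means correlated at 0.0615 to 0.174, and 1 of 4 numbers correlated best with its own partner. Within age classes the correlations were -0.00285 (replicates 1 and 2) and -0.00533 (replicates 3 and 4). The numbers were therefore not taken to pair the libraries. Reads were fewest for Dlx1, Dlx5, Dlx6, Isl1 and Zfp503, with 0 to 152 each over 8 libraries. Dlx5 had 0 reads in the deep libraries too, and Zfp503 had 0 in SST replicate 1 but 15 in SST replicate 3.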

Other observations

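Paralogues of the factors were read from a list of 11 genes, of which 4 could be tested and 0 passed between populations in edgeR. Meis3 was higher than Meis2 in 6 of 8 libraries, at 15.7 to 56.2 TPM in PKCd and 9.94 to 93.0 TPM in SST libraries. Bcl11a stood at 42.1 TPM in SST replicate 2 and at 0 in PKCd replicates 3 and 4 (log2 fold change -3.19 ± 2.49 SE, edgeR adjusted p 0.889), and Zfp703 had the highest estimate, 0.51 ± 2.52 SE (edgeR adjusted p 0.989). Isl2 was listed at 0 in all libraries, and the other Dlx genes had single libraries with reads: Dlx2 1 read in PKCd replicate 4 (0.482 TPM), and Dlx3 1 read (0.261 TPM) and Dlx4 2 reads (0.774 TPM) in SST replicate 4. Meis3, Isl2 and the Dlx genes were picked from the list after their values were seen.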
